A study of Homo sapiens with 3 samples.

Results

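The genes described are 41 amino acid transporter genes of the Ishikawa cell line, chosen by symbol alone: every row of the table named SLC1A, SLC3A, SLC7A, SLC36A, SLC38A or SLC43A followed by a number, plus SLC6A9, out of 35713 rows used. The rule uses no measured value, though it was chosen with earlier results of these data known. Ishikawa is an established human line of endometrial adenocarcinoma. RNA was sequenced from 3 libraries, CLDN6 replicates 1 and 2, made from cells given CLDN6 by a lentiviral vector (an overexpression the labels call transient), and 1 wild-type (WT) library from cells without treatment. CLDN6 encodes the tight junction protein claudin-6, whose adhesion signal is the subject of the series. No library with an empty vector was analysed here, so the vector and CLDN6 cannot be told apart, and WT has no replicate. The question of the contrast is which transcripts differ between cells with and without added claudin-6.

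Amino acids cross the membrane through carriers of several solute carrier (SLC) families. The SLC7 light chains work as exchangers bound by a disulfide bridge to an SLC3 heavy chain, which brings them to the cell surface. The SLC38 family couples small neutral amino acids such as glutamine to sodium, and the SLC1 family carries glutamate or small neutral amino acids. Some SLC36 carriers, such as SLC36A1, use protons, and SLC43 carriers let large neutral amino acids pass by facilitated diffusion. Several of these genes are known targets of ATF4, the transcription factor induced when amino acids are short, and tumor cells often carry large amounts of SLC7A5, SLC3A2 and SLC1A5.

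Levels are given as RPM, reads of a gene per 1000000 reads, always in the order CLDN6 replicate 1, CLDN6 replicate 2 and WT. The libraries held 65755118 to 71088867 reads. CLDN6 was at 354, 413 and 0.236 RPM, which fits the labels. All 5 epithelial markers (EPCAM, KRT8, KRT18, KRT19 and CDH1) and all 4 markers of the Mullerian duct and endometrium (PAX8, SOX17, EMX2 and HOXA10) were above 1 RPM in every library. Of other cell types, PECAM1, CD3E, DCN, LUM and PDGFRB had 0 reads in the 3 libraries. The summed levels of the leukocyte, endothelial and fibroblast lists lay at 0.788 to 1.27, 9.99 to 16.3 and 16.5 to 49.3 RPM, nearly all of the last 2 from VWF and COL1A1. The CLDN6 libraries stood apart from each other, since 43.4% of the 14509 genes tested differed by 2-fold or more between them. Nothing in the labels ties the libraries to separate cultures, so p-values measure only a spread that may be technical.

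Of the 41 genes, 23 averaged 1 RPM or more and were tested, 9 had fewer reads, and 9 had none. None of the 23 passed the test of CLDN6 against WT (limma on log2(RPM + 1), Benjamini-Hochberg over all genes), with adjusted p = 0.99996 for each and 0 at an unadjusted p under 0.05. Limma-voom on recovered reads also called 0, with 0 at an unadjusted p under 0.05. Of all 14509 genes tested, 0.00689% passed, namely CLDN6 alone. With 1 residual degree of freedom, the test takes the lone WT library to vary like the CLDN6 pair, which differed widely, so only very large differences could have passed. In this fit the variance of each gene came wholly from the trend over all genes at its mean level. Each SE and p-value below thus does not reflect the gap between the CLDN6 libraries in that gene. The levels below are therefore given library by library.

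**Figure D1:**
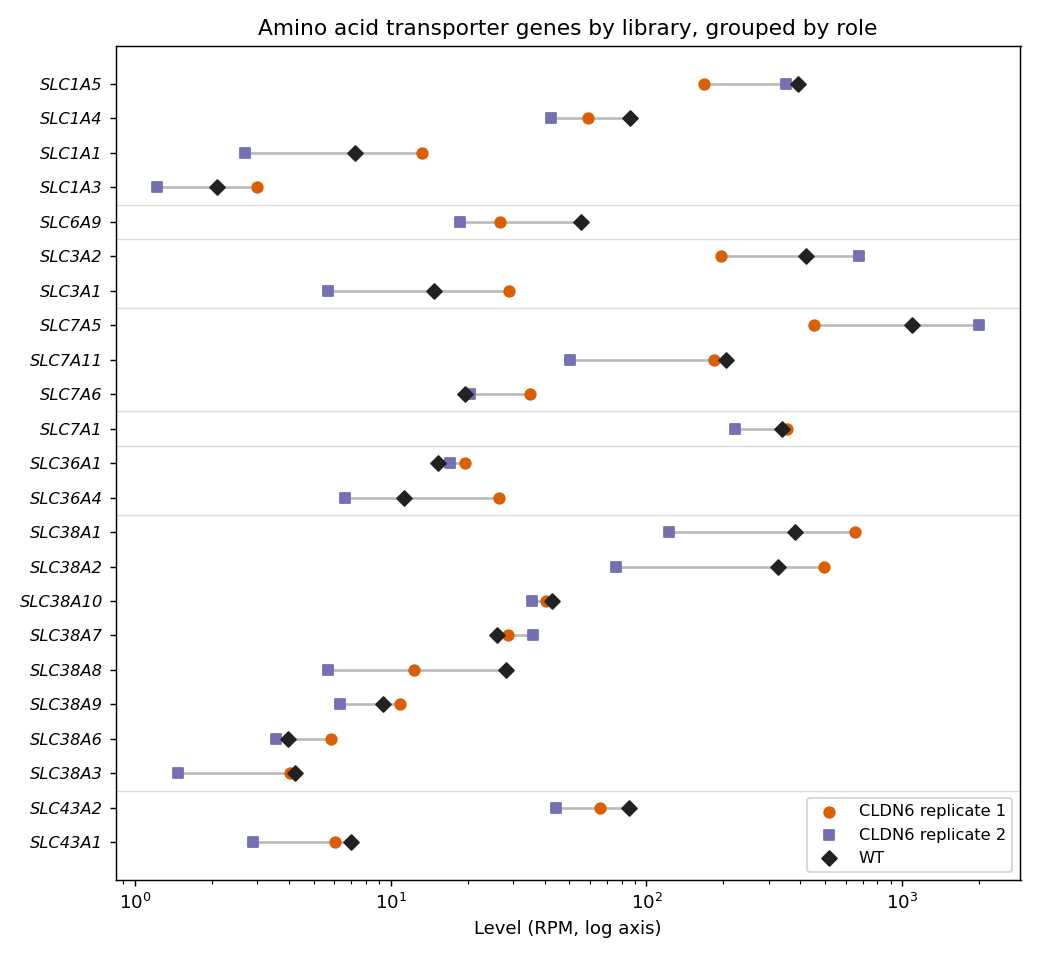
Levels of the 23 tested genes in RPM (x, log axis), 1 point per library, with a grey line from the lowest to the highest library; rows are grouped by role. SLC7A5 and SLC3A2 run from CLDN6 replicate 1 (lowest) to replicate 2 (highest), SLC38A1 and SLC38A2 run the opposite way, and SLC6A9 and SLC38A8 are highest in WT.

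In 9 of the 23 genes both CLDN6 libraries lay below WT, against 15.1% of all genes tested: SLC1A4, SLC1A5, SLC6A9, SLC7A11, SLC38A3, SLC38A8, SLC38A10, SLC43A1 and SLC43A2. In 3 both lay above (SLC7A6, SLC36A1 and SLC38A7), against 9.06%, and in 11 WT lay between them, against 75.9%. Under a median-ratio (RLE) and a trimmed-mean (TMM-like) scaling, 7 of the 9 still lay below in both, all but SLC1A5 and SLC38A10, and 2 of the 3 above, all but SLC38A7. SLC38A9 and SLC7A1 then joined the genes below and SLC38A6 those above, so the counts stayed at 9 and 3. The shares of all genes below and above in both were 11.8% and 13.0% under RLE, and 13.7% and 11.1% under the TMM-like scaling. Levels 2-fold or more below WT in both libraries were found for 2 genes, SLC38A8 and SLC6A9 (0.193% of all genes), and 2-fold or more above in both for 0 (0.0345%). In replicate 1 alone, 5 of the 23 genes were 2-fold or more below WT (1.16% of all genes) and 1 above (6.69%). In replicate 2 alone, 10 were below (18.4%) and 0 above (1.77%). Both changes are taken from the same WT library, so a high or low value in WT moves them together. The median change of the 23 genes was 0.06 in replicate 1 and -0.69 in replicate 2 on the log2(RPM + 1) scale, where the medians of all genes were 0.20 and -0.35. Relative to all genes the medians were thus -0.14 and -0.34. The RLE and TMM-like scalings brought the all-gene medians to -0.05 in replicate 1, and to 0.08 and 0.01 in replicate 2.

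**Figure D2:**
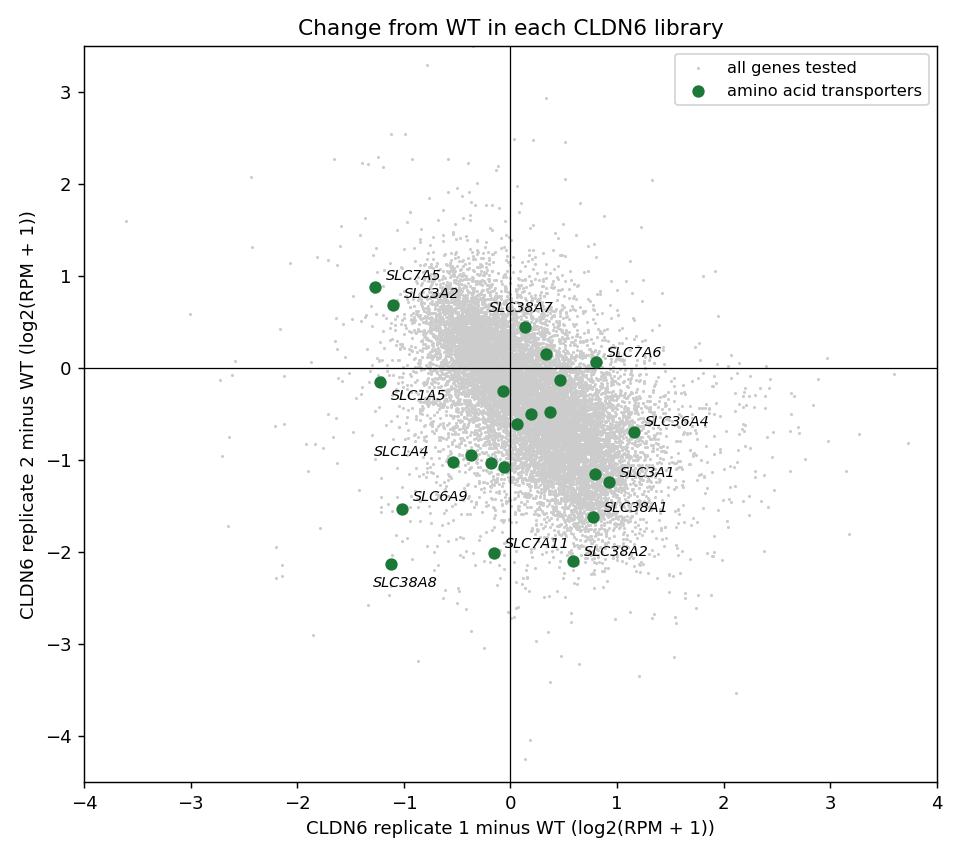
Change from WT in CLDN6 replicate 1 (x) and replicate 2 (y), both as differences of log2(RPM + 1), for all genes tested (grey) and the 23 amino acid transporter genes (green); 7 of all genes lie outside the axes. SLC38A8 and SLC6A9 are at the lower left, below WT in both libraries, while SLC7A5 and SLC3A2 at the upper left and SLC38A2 at the lower right moved in opposite ways in the 2 libraries.

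By the mean over the 3 libraries, though not in CLDN6 replicate 1, the most abundant transcripts belonged to the pair that forms the L-type exchanger of large neutral amino acids. SLC7A5, the light chain LAT1 that imports leucine and other essential amino acids (chr16:87830023-87869488, minus strand, GRCh38), was at 450.04, 2002 and 1091 RPM. SLC3A2, its heavy chain, also known as CD98 (chr11:62856102-62888875, plus strand), was at 196, 677 and 421 RPM. Both were lowest in CLDN6 replicate 1 and highest in replicate 2, with WT between, so the CLDN6 libraries surround WT. The log2 change was -0.20 ± 0.98 (SE) for SLC7A5, from -1.27 in replicate 1 and 0.88 in replicate 2 (limma, adjusted p = 0.99996). For SLC3A2 it was -0.21 ± 0.93, from -1.10 and 0.68 (limma, adjusted p = 0.99996). While SLC7A5 spanned 4.45-fold over the libraries and SLC3A2 3.46-fold, their ratio moved less. Per kilobase of the longest transcript, SLC7A5 stood at 1.13, 1.45 and 1.27 times SLC3A2. The row RP4-536B24.2, which overlaps SLC7A5 on the other strand, held 3.97%, 3.98% and 4.10% as many reads as SLC7A5 in the 3 libraries. The strand setting of the counts is not given in the sources used here, so the 2 rows cannot be told apart.

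Another partner of SLC3A2 did not follow it. SLC7A11, the light chain xCT that exchanges cystine for glutamate and supplies cysteine for glutathione, was at 184, 50.02 and 205 RPM. It was near WT in CLDN6 replicate 1 and 4.10-fold below WT in replicate 2, the library in which SLC3A2 was highest. SLC7A5 thus stood at 5.19, 85.1 and 11.3 times SLC7A11 per kilobase. After removal of the GC, length and level trend described below, the gap between the CLDN6 libraries went from 1.86 to 0.36 for SLC7A11. For SLC3A2 it went from 1.79 to 0.87. SLC7A11-AS1, on the opposite strand, was at 15.8, 3.63 and 16.2 RPM, between 7.27% and 8.56% of SLC7A11. SLC7A6, the light chain y+LAT2 that exchanges cationic for neutral amino acids, was at 35.0, 20.5 and 19.6 RPM, above WT in both CLDN6 libraries, by 0.81 and 0.06 on the log2(RPM + 1) scale, and by 0.53 and 0.55 under the RLE scaling and 0.53 and 0.46 under the TMM-like scaling. Its row overlaps SLC7A6OS on the opposite strand, at 29.8, 14.9 and 18.1 RPM. SLC7A6OS held 85.2%, 72.8% and 92.7% as many reads as SLC7A6, so the level of SLC7A6 is uncertain. SLC7A8, the light chain LAT2, was read 103, 22 and 50 times and SLC7A7, the light chain y+LAT1, 32, 24 and 27 times, both under the minimum for the test.

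SLC3A1, the heavy chain rBAT of the cystine and dibasic amino acid carrier of kidney and gut, was at 28.99, 5.69 and 14.8 RPM. Its usual light chain SLC7A9 had 1 read in CLDN6 replicate 1 and 0 in the others. SLC3A1 overlaps PREPL on the opposite strand, at 118, 25.6 and 61.0 RPM, and held 24.7%, 22.2% and 24.2% as many reads as PREPL, so its level is uncertain. SLC7A1, the cationic carrier CAT1 that imports arginine and lysine without a heavy chain (chr13:29509410-29595688, minus strand), was at 354, 222 and 339 RPM. It lay close to WT in replicate 1 and lower in replicate 2, and its log2 change was -0.27 ± 0.92 (SE; limma, adjusted p = 0.99996). SLC7A1 had the narrowest span of the 7 most abundant genes, 1.59-fold.

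Of the sodium-coupled family, SLC38A1 and SLC38A2 ran opposite to SLC7A5 and SLC3A2. SLC38A1, the carrier SNAT1 of glutamine and other small neutral amino acids (chr12:46183063-46270017, minus strand), was at 651, 123 and 380.2 RPM. SLC38A2, its paralog SNAT2, known to be induced when amino acids are withdrawn, was at 493, 75.8 and 328 RPM. Both were highest in CLDN6 replicate 1 and lowest in replicate 2, 5.30-fold and 6.50-fold apart. The log2 change of SLC38A1 was -0.42 ± 0.92 (SE), from 0.78 in replicate 1 and -1.62 in replicate 2 (limma, adjusted p = 0.99996). Per kilobase, SLC38A2 stood at 1.25, 1.02 and 1.42 times SLC38A1, so these neighbors on chromosome 12 kept a similar ratio while their levels differed.

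SLC38A8, which encodes SNAT8, a carrier linked to development of the fovea (chr16:84009667-84042636, minus strand), was at 12.4, 5.69 and 28.2 RPM. These levels rest on 880, 374 and 1910 reads. Both CLDN6 libraries lay below WT, by -1.12 and -2.12, and its log2 change of -1.62 ± 1.22 (SE) was the farthest from 0 among the 23 genes (limma, adjusted p = 0.99996). The other SLC38 genes lay closer to WT in replicate 1. SLC38A7, a lysosomal exporter of glutamine and asparagine, was at 28.8, 36.1 and 26.1 RPM, above WT in both CLDN6 libraries. SLC38A9, the lysosomal arginine sensor of the mTORC1 kinase, was at 10.8, 6.31 and 9.35 RPM. SLC38A10 was at 40.5, 35.8 and 42.7 RPM, the narrowest span of the 23 genes at 1.19-fold. SLC38A3, the glutamine carrier SNAT3, was at 4.02, 1.48 and 4.23 RPM, -0.06 and -1.08 from WT on the log2(RPM + 1) scale. SLC38A6, at 5.85, 3.56 and 3.98 RPM, overlaps TRMT5, which was higher in each library.

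SLC6A9, SLC1A4 and SLC1A5, genes of carriers for glycine and other small neutral amino acids, were highest in WT. SLC6A9, the glycine transporter GLYT1 (chr1:43991500-44031467, minus strand), was at 26.8, 18.6 and 55.4 RPM, from 1906, 1222 and 3760 reads. The CLDN6 libraries lay at -1.02 and -1.53 from WT on the log2(RPM + 1) scale and 0.51 apart from each other, and the log2 change was -1.27 ± 1.06 (SE; limma, adjusted p = 0.99996). CCDC24, which overlaps SLC6A9 on the opposite strand, was at 11.0, 8.06 and 8.37 RPM and did not share this order. It held 40.9%, 43.4% and 15.1% as many reads as SLC6A9, so the level of SLC6A9 is uncertain.

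SLC1A4, the exchanger ASCT1 of alanine, serine, cysteine and threonine, was at 59.3, 42.3 and 86.5 RPM, below WT by -0.54 and -1.02. SLC1A5, the glutamine exchanger ASCT2 (chr19:46774883-46788594, minus strand), was at 168, 352 and 392 RPM. It lay well below WT in replicate 1 (-1.22) and close to WT in replicate 2 (-0.16), with a log2 change of -0.69 ± 0.92 (SE; limma, adjusted p = 0.99996). The value of replicate 2 turned positive, to 0.35 under the RLE scaling and 0.26 under the TMM-like scaling. CTB-147N14.6, a row on the other strand, held 21.3%, 23.2% and 21.9% as many reads as SLC1A5. The glutamate carriers of the family were low: SLC1A1 (EAAT3) was at 13.3, 2.69 and 7.22 RPM and SLC1A3 (EAAT1) at 3.01, 1.22 and 2.09 RPM, both with WT between the CLDN6 libraries.

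The facilitated carriers of branched-chain amino acids had the same order as SLC1A4. SLC43A2 (LAT4) was at 66.0, 44.2 and 85.8 RPM and SLC43A1 (LAT3) at 6.03, 2.90 and 7.001 RPM, both highest in WT and lowest in CLDN6 replicate 2. SLC36A1, a proton-coupled carrier of lysosomes and the cell surface, was at 19.5, 17.1 and 15.3 RPM, above WT in both CLDN6 libraries. SLC36A4, a proline and tryptophan carrier, was at 26.5, 6.63 and 11.3 RPM, the only gene of the 23 at least 2-fold above WT in either CLDN6 library, here in replicate 1.

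The promoters of SLC6A9, SLC38A8, SLC1A4 and SLC1A5, 4 of the 9 genes below WT in both CLDN6 libraries, are shown because ATF4 acts through a short element, TGATGNAA, in the promoters or introns of several of its targets. The windows run from 250 bases before to 50 after a transcript start, from RefSeq (GRCh38.p14), 5′ to 3′ on the strand of the gene, with matches to the element on either strand in capitals. They are chr1:44031413-44031712 (minus strand) for SLC6A9, chr16:84042746-84043045 (minus strand) for SLC38A8, chr2:64989149-64989448 (plus strand) for SLC1A4 and chr19:46784765-46785064 (minus strand) for SLC1A5. SLC1A4 and SLC1A5 have other listed starts, and the window shown for each is the one that held a match. Whether these starts are used in Ishikawa cells was not tested.
SLC6A9: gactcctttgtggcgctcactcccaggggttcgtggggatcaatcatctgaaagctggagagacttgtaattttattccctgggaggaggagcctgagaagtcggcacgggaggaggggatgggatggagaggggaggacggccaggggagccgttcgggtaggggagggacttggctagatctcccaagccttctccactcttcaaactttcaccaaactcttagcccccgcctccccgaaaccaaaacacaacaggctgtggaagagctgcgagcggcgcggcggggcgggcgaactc
SLC38A8: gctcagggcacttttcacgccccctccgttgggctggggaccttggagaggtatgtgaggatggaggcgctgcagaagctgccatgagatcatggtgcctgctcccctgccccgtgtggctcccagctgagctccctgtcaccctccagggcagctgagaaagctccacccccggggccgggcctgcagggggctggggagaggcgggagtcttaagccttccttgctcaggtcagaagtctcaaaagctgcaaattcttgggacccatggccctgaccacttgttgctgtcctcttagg
SLC1A4: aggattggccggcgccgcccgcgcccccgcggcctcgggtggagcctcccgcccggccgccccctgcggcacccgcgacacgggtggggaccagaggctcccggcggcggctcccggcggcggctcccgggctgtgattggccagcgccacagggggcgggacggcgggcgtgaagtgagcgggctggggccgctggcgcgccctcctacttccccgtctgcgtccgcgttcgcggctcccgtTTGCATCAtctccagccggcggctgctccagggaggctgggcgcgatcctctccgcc
SLC1A5: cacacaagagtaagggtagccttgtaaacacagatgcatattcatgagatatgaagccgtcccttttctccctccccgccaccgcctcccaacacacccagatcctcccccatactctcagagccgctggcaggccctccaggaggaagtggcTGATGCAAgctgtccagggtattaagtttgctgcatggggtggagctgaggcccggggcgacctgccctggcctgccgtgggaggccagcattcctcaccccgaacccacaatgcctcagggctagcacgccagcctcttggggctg
SLC1A4 held the match TTGCATCA, on the opposite strand, beginning 7 bases before the more downstream of its 2 listed starts, and SLC1A5 the match TGATGCAA, beginning 97 bases before the most downstream of its 3 listed starts; the other window of SLC1A4 and the other 2 of SLC1A5 held none. The windows of SLC6A9 and SLC38A8 held no match in these letters. RefSeq windows were matched for 32 of the 41 genes (54 windows), and 6 windows held the element (11.1%), against 3.62% of all 35116 windows of the same length. The other 4 were 1 window each of SLC1A3, SLC3A2, SLC38A1 and SLC7A1, which include genes that ran opposite ways between the CLDN6 libraries. The windows listed for SLC7A5 and SLC38A2 held no match. SLC7A11, SLC38A3 and SLC3A1 were among the genes without a listed window, so they were not searched. A match describes letters and not a bound site.

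Replicates 1 and 2 differed by 2-fold or more in 11 of the 23 genes (47.8%, against 43.4% of all genes), and by 1.5-fold or more in 17 (against 65.4%). Of the 23 genes, 8 were 2-fold or more higher in replicate 1 (34.8%, against 36.2% of all genes), a share near that of all genes. The other 3, SLC7A5, SLC3A2 and SLC1A5, were 2-fold or more lower (13.0%, against 7.15%). The side varied with the base composition of the transcripts. All 9 genes with a GC content under 45% were higher in replicate 1, with a median difference of 1.86 on the log2(RPM + 1) scale, as for SLC38A2 (38.1% GC) and SLC7A11 (35.4%). Over all genes under 45% the median was 1.37. Of the 10 genes with a GC content of 55% or more, 6 were higher in replicate 1, with a median of 0.34 and a range from -2.15 (SLC7A5, 61.1% GC) to 1.02 (SLC38A3), against a median of -0.27 for all such genes. Across the 23 genes, Spearman's rho of this difference was -0.62 against GC content and 0.17 against the length of the transcript. Across 14372 genes the values were -0.61 and 0.44. All these genes share the same libraries, and the correlations are descriptions; how far GC content or length set the levels of a single gene was not tested.

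A trend fitted on GC content, length and mean level was then subtracted in each CLDN6 library. Between replicates 1 and 2, 5 of the 23 genes then differed by 2-fold or more, against 16.0% of all genes. The difference between them became smaller in 16 genes and larger in 7 (SLC6A9, SLC36A1, SLC38A6, SLC38A7, SLC38A8, SLC38A9 and SLC38A10), for SLC38A8 from 1.00 to 1.47. Below WT in both were 8 genes (20.3% of all genes), above in both 4 (19.2%). SLC7A5 then lay at -0.83 in replicate 1 and 0.77 in replicate 2 from WT, SLC3A2 at -0.59 and 0.28, and SLC38A2 at 0.21 and -1.51. The opposite sides of these genes in the 2 libraries were thus kept at a smaller size. SLC6A9, at -0.73 and -1.56, SLC38A8, at -0.83 and -2.30, SLC7A11, at -0.71 and -1.07, SLC1A4, at -0.76 and -0.53, and SLC1A5, at -0.67 and -0.45, stayed below WT in both. The number of genes 2-fold or more below WT in both went from 2 to 0 (0.16% of all genes), since replicate 1 of SLC6A9 and SLC38A8 came within that limit. In replicate 1 alone, the lowest of the 23 values was then -0.83 (SLC38A8), so all 5 genes beyond that limit before came within it. In replicate 2, only SLC38A2, SLC38A8, SLC6A9 and SLC7A11 stayed beyond it. The shares of all genes in a single library were not counted after trend removal. SLC36A1 and SLC7A6 stayed above WT in both, as did SLC38A7.

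The make-up of transporter transcripts differed between the libraries more than their sum. Reads in the 41 genes summed to 2886, 3754 and 3577 RPM. SLC7A5, SLC3A2 and SLC1A5 made up 28.2%, 80.7% and 53.2% of these reads, and SLC38A1 and SLC38A2 39.6%, 5.29% and 19.8%. Per kilobase of the longest transcript and 1000000 reads (RPKM), SLC7A5 led in CLDN6 replicate 2, at 441 RPKM, and in WT, at 240.4 RPKM. In CLDN6 replicate 1 it stood at 99.2 RPKM beside SLC38A2 at 101 RPKM. SLC7A5 and SLC3A2 were the leading 2 genes per kilobase in WT and in replicate 2. The SLC7A5 level was 0.984, 28.5 and 3.59 times that of SLC38A2 per kilobase, with WT between the CLDN6 libraries.

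**Figure D3:**
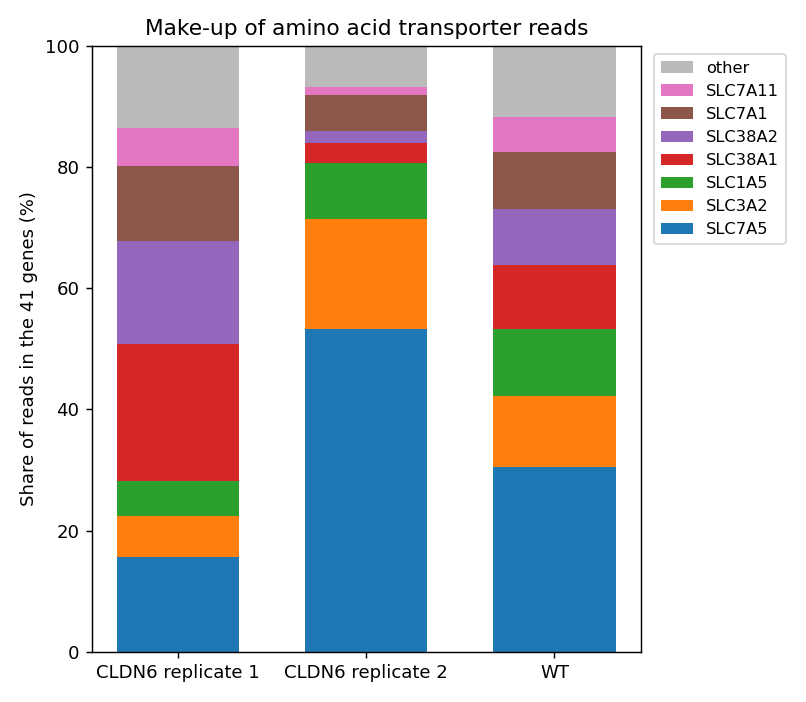
Share of the reads in the 41 amino acid transporter genes (y, percent) taken by the 7 genes with the most reads and by all others (grey) in each library (x), as stacked bars. SLC7A5, SLC3A2 and SLC1A5 at the bottom of the bars take 28.2% in CLDN6 replicate 1, 80.7% in replicate 2 and 53.2% in WT.

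The genes without a read in any library were SLC1A6, SLC1A7, SLC7A3, SLC7A4, SLC7A13, SLC7A14, SLC36A2, SLC36A3 and SLC38A11, many of them known from brain, kidney or gut. A count of 0 allows up to 0.0422, 0.0456 and 0.0442 RPM (3 reads), for counting error only, so these transcripts were not detectable at this depth. SLC1A2, the main glutamate carrier of astrocytes, had 3, 0 and 6 reads, SLC38A4 had 4, 0 and 1, SLC7A10 had 5, 2 and 5, and SLC43A3, a carrier of nucleobases and not of amino acids, had 7, 3 and 9. SLC7A2, a cationic carrier like SLC7A1, had 41, 19 and 42 reads. SLC38A5, the glutamine carrier SNAT5, had 11, 58 and 11 reads, highest in CLDN6 replicate 2 as was SLC38A7.

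Of the 8 genes taken as known ATF4 targets (SLC1A4, SLC1A5, SLC3A2, SLC6A9, SLC7A1, SLC7A5, SLC7A11 and SLC38A2), 4 lay below WT in both CLDN6 libraries (15.1% of all genes), 0 above in both (9.06%), and 4 on opposite sides (75.9%). This list, too, was drawn up with earlier results of these data known. Their medians relative to all genes were -0.98 in replicate 1 and -0.46 in replicate 2, where those of the other 15 genes were 0.13 and -0.34. In each CLDN6 library 4 of the 8 were 2-fold or more below WT, against 1.16% of all genes in replicate 1 and 18.4% in replicate 2. These were SLC7A5, SLC3A2 and SLC1A5 in replicate 1, SLC7A11, SLC38A2 and SLC1A4 in replicate 2, and SLC6A9 in both. After removal of the GC, length and level trend, SLC7A5, SLC3A2, SLC1A5 and SLC6A9 lay at -0.83, -0.59, -0.67 and -0.73 in replicate 1. All were then within the 2-fold limit there. Also below WT in replicate 1 were SLC1A4 (-0.76) and SLC7A11 (-0.71), while SLC38A2 (0.21) and SLC7A1 (0.16) were above it. In replicate 2, SLC1A4 came within the limit at -0.53, while SLC7A11 (-1.07), SLC38A2 (-1.51) and SLC6A9 (-1.56) stayed beyond it. SLC1A5 (-0.45) and SLC7A1 (-0.35) were below WT in that library, and SLC7A5 (0.77) and SLC3A2 (0.28) above it. The shares of all genes beyond the limit were not counted after trend removal. ATF4 itself was at 542, 644 and 845 RPM, lowest in replicate 1. This is a transcript level, and its link to the levels of the 8 genes was not tested.

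Beside the transporters, 3 further lists of amino acid handling were counted. Of 19 tested genes of other amino acid carriers, such as the mitochondrial aspartate and glutamate carrier SLC25A13 at 48.8, 43.8 and 42.3 RPM, the mitochondrial glycine carrier SLC25A38 at 35.8, 50.6 and 41.8 RPM and the lysosomal cysteine carrier gene MFSD12 at 32.4, 68.5 and 42.1 RPM, 0 passed the test (limma, 0 at an unadjusted p under 0.05). In that list 3 genes lay below WT in both CLDN6 libraries (15.8%, against 15.1% of all genes) and 3 above in both (15.8%, against 9.06%). Of 26 genes of amino acid sensing by mTORC1 and the kinase GCN2, 0 passed, 3 lay below in both (11.5%) and 5 above in both (19.2%), beside the same shares of all genes; GCN1L1 was at 149, 199 and 185 RPM and MLST8 at 56.8, 114 and 81.7 RPM. Of 16 enzymes that use imported amino acids, 0 passed, 3 lay below in both (18.8%) and 2 above in both (12.5%), again beside 15.1% and 9.06% of all genes; SHMT2 was at 496, 707 and 763 RPM, ALDH18A1 at 248, 349.97 and 255 RPM and asparagine synthetase (ASNS) at 202, 182 and 357 RPM. The sensing and enzyme lists also had 0 genes at an unadjusted p under 0.05 in limma, and limma-voom called 0 in the 3 lists. None of the genes of these lists was at least 2-fold from WT on the same side in both CLDN6 libraries.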

How the data were processed

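RNA-seq was analysed in 3 Ishikawa libraries. The authors deposited log2 values, with 1 row per gene and 1 column per library, and these are log2 of reads per 1000000 reads. This was read from the values: 2 to the power of a value is a whole multiple of a step for 99.9323% to 99.9738% of values (tolerance 0.05 of a read). Reads were recovered from the steps. Per the submitters' processing notes the build was GRCh38. The aligner, counter and strandedness (not given in the sources used here) are unknown. Columns carry the prefix ECC-1, which no label holds, and were matched by the words CLDN6 1, CLDN6 2 and WT.

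Of 35805 rows, 92 were left out because they had no gene ID or repeated another row's ID with 0 reads. Length and GC content came from the longest transcript in GENCODE release 29, and coordinates from the table. Genes averaging 1 RPM or more were tested by limma-trend (limma 3.58.1, R 4.3.3) on log2(RPM + 1), two-sided, at an adjusted p of 0.05. The script was tested on simulated data. The trend was fitted in each CLDN6 library with splines of 5 degrees of freedom. Members and lists were chosen with earlier results of these data known. Fit values are given for genes at least 1.5-fold from WT on the same side in both CLDN6 libraries and for the 5 with the highest mean; promoter windows were chosen after values were seen. Alternatives were other pseudocounts, filters, scalings and folds, limma-voom and each CLDN6 replicate left out; counts in a single CLDN6 library and counts without a fold minimum were added after the data were seen.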

Additional observations from a re-analysis of the deposited data

How the results depend on the processing

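No gene of the 41, and none of the pathway lists, was called under any of the 8 other settings fitted. After removal of the GC, length and level trend, the genes at least 2-fold below WT in both CLDN6 libraries numbered 0 and those at least 2-fold apart between them 5; with a 1.5-fold limit 17 were apart. Leaving out a CLDN6 replicate, the genes at least 2-fold below WT numbered 5 (without replicate 2) to 10 (without replicate 1) and those above 0 to 1. The median change in replicate 2 relative to all genes was -0.12 without a filter, -0.49 at a mean of at least 5 RPM and -0.50 after quantile normalization; the cause was not tested.

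Of 70 values of the 7 genes with fit values, 66 kept their direction. The 4 that reversed all came from leaving out a replicate. The other settings rescale, filter or refit the same 3 libraries, so the count of 66 is no measure of stability between libraries. A replicate was left out under the main scaling only. Leaving out a replicate gave -1.27 to 0.876 for SLC7A5, -1.10 to 0.68 for SLC3A2, -1.62 to 0.78 for SLC38A1 and -0.606 to 0.0632 for SLC7A1, so their direction rests on which CLDN6 library is used. SLC38A8 had an unadjusted p of 0.029 after trend removal (adjusted p = 0.999971, limma). No paired analysis was possible because WT has 1 library and its label carries no replicate number. Without a WT replicate, the spread of WT is unknown. Depth limits only the genes with few reads.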
